A study of Homo sapiens with 10 samples.

Results

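Ribo-STAMP marks translated messenger RNA with the cytidine deaminase APOBEC1 tethered to the small ribosomal subunit through its protein RPS2, and C-to-U edits then collect on mRNA held by ribosomes. In HEK293T, an established line from human embryonic kidney, 4636 coding positions were listed as edited in all 3 Ribo-STAMP libraries and in none of the 3 libraries of cells with APOBEC1 alone. They are called recurrent positions here. They made up 4.07% of the 113981 positions listed in any HEK293T library, and they lay in 730 genes. The listing itself chose them, so their editing in the Ribo-STAMP libraries and their lack of it in the APOBEC1-only libraries are described without a test.

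Both HEK293T groups (3 libraries each) carried a doxycycline-inducible vector, APOBEC1-only or Ribo-STAMP, and received 1 ug/mL of doxycycline over 72 h to switch it on. The series also holds MDA-MB-231, an established line of triple-negative breast cancer with the Ribo-STAMP vector, induced with 1 ug/mL doxycycline for 48 h and either left untreated (2 libraries) or given 100 uM CoCl2 for 48 h (2 libraries). All libraries were long reads of polyadenylated RNA. Each entry gave the edited reads and the covering reads of a coding position in an annotated isoform, and only positions with at least 1 edited read were listed. The labels number the replicates without saying that they came from separate cultures, and the amounts of the 2 editors in the cells were not measured here.

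APOBEC1 deaminates cytidine in RNA and in the gut edits the apolipoprotein B message. When it is tethered to the ribosome, a transcript that spends longer on ribosomes has more chance to be edited, and when it is free its edits give the background of the enzyme. The coding sequences read here are those of the cell's own mRNA, and RPS2 coding sequence is also part of the Ribo-STAMP vector. The sequence around the recurrent positions was not analysed here.

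The HEK293T Ribo-STAMP libraries listed 39385 to 49078 positions with 50908 to 65792 edited reads, and the APOBEC1-only libraries 2791 to 3308 positions with 2971 to 3498 edited reads. Of the HEK293T line markers, CKB was listed in 3 of 3 Ribo-STAMP and 2 of 3 APOBEC1-only libraries, NEFM in 3 and 1, and NEFL in none of them. CKB was also listed in all 4 MDA-MB-231 libraries, at 232 to 447 covering reads against 35 to 150 in HEK293T Ribo-STAMP, so it does not mark HEK293T here, whereas NEFM was listed in no MDA-MB-231 library. Of 7 markers of MDA-MB-231, 6 were listed in no HEK293T library, and VIM was listed in 2 Ribo-STAMP and 1 APOBEC1-only library. No position was listed in all 6 libraries, so positions edited in every library of both constructs are missing from the files. The HEK293T coordinates are given as hg19 by elimination, because hg19 and hg38 are the builds named by the submitters and only 9.61 to 10.8% of the HEK293T entries lay inside their own gene in GRCh38, against 99.8 to 99.9% in MDA-MB-231.

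The rule with the constructs swapped, all 3 APOBEC1-only libraries and no Ribo-STAMP library, found 6 positions, or 0.00526% of the same 113981. Just outside the rule lay 14011 positions listed in 2 Ribo-STAMP libraries and no APOBEC1-only library, and 274 listed in all 3 Ribo-STAMP libraries and in 1 or 2 APOBEC1-only libraries. A position of EIF3L, a subunit of an initiation factor (chromosome 22, 38246039), shows the first kind. It had 26 of 178 reads edited in Ribo-STAMP replicate 3 and 1 of 47 in replicate 2, and was not listed in replicate 1. A position of the elongation factor EEF1A1 (chromosome 6, 74227596) shows the second kind, with 8 of 259, 18 of 478 and 109 of 1388 reads edited in the Ribo-STAMP replicates and a listing in APOBEC1-only cells as well.

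Recurrent positions were well covered and lightly edited. Their median coverage was 259, 236 and 252 reads in Ribo-STAMP replicates 1, 2 and 3, and their median edited share, the percent of covering reads that carried the edit, was 0.746, 0.813 and 0.819%. The mean of the 3 medians was 0.793% ± 0.0402 (SD, n = 3). The middle range, from the lower to the upper quartile, was 0.394 to 1.46%, 0.426 to 1.59% and 0.435 to 1.59% in the 3 replicates. In total 2656 positions, or 57.3%, had a mean share under 1%. Positions listed in 2 Ribo-STAMP libraries had a median coverage of 115 ± 24.6 reads and a median share of 1.10% ± 0.181, and positions listed in 1 had 45.7 ± 11.6 reads and 2.44% ± 0.508 (SD, n = 3 each). Shares thus fell as coverage rose across the 3 sets, and 1 edited read is a larger share of fewer reads.

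Most of the evidence at a single position was a few reads. A single edited read made up the listing of 44.0, 49.2 and 46.2% of recurrent positions in the 3 replicates, and at 832 positions it did so in all 3. At least 2 edited reads in every replicate were found at 1142 positions, at least 5 at 153 and at least 10 at 24. The recurrent positions held 12289 of 65792, 10712 of 50908 and 12541 of 59227 edited reads, which is 18.7, 21.0 and 21.2% of the edited reads (20.3% ± 1.40, SD, n = 3) at 9.45, 11.8 and 10.8% of the positions of each library.

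**Figure D1:**
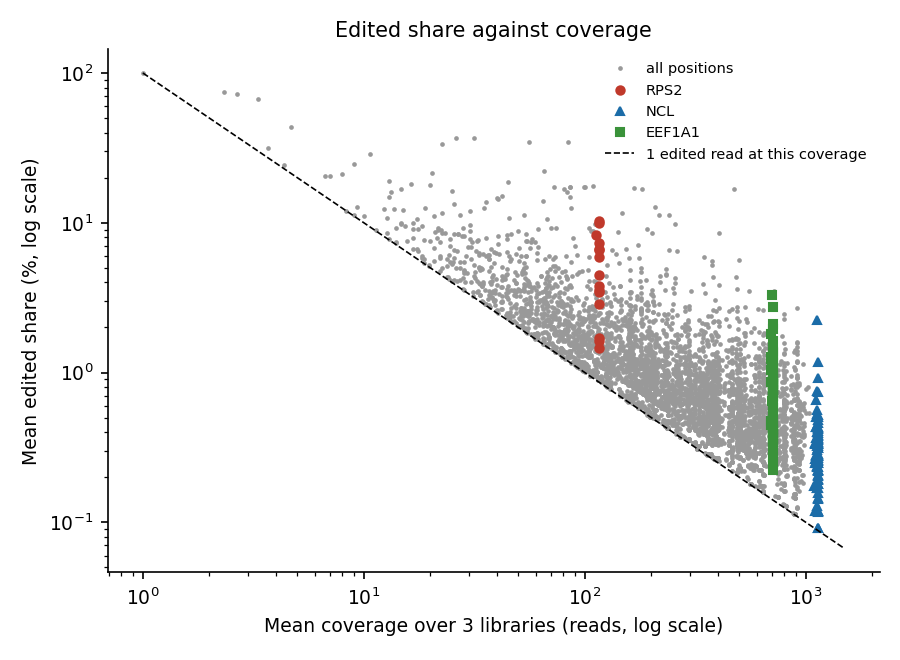
Mean edited share (percent, log scale) against mean coverage (reads, log scale) over the 3 Ribo-STAMP libraries for the 4636 recurrent positions, with RPS2, NCL and EEF1A1 marked and a dashed line at the share that 1 edited read gives. The cloud follows the line, RPS2 lies above most positions of its coverage, and NCL has the deepest positions.

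Recurrence rose with coverage. Among positions that no APOBEC1-only library listed and whose isoform had entries in every Ribo-STAMP library, 76 of 15974 positions under 25 reads were recurrent, a share of 0.476% (exact Clopper-Pearson 95% interval 0.375 to 0.595%, counting error only). The share was 6.19% (5.82 to 6.57%) at 100 to 200 reads, 13.05% (12.4 to 13.7%) at 200 to 400 reads, 25.5% (24.2 to 26.8%) at 400 to 800 reads and 30.8% (27.7 to 33.9%) at 800 reads and above. The last group came from only 4 genes. The median share of the recurrent positions moved the other way, from 9.24% under 25 reads to 0.332% at 800 reads and above.

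**Figure D2:**
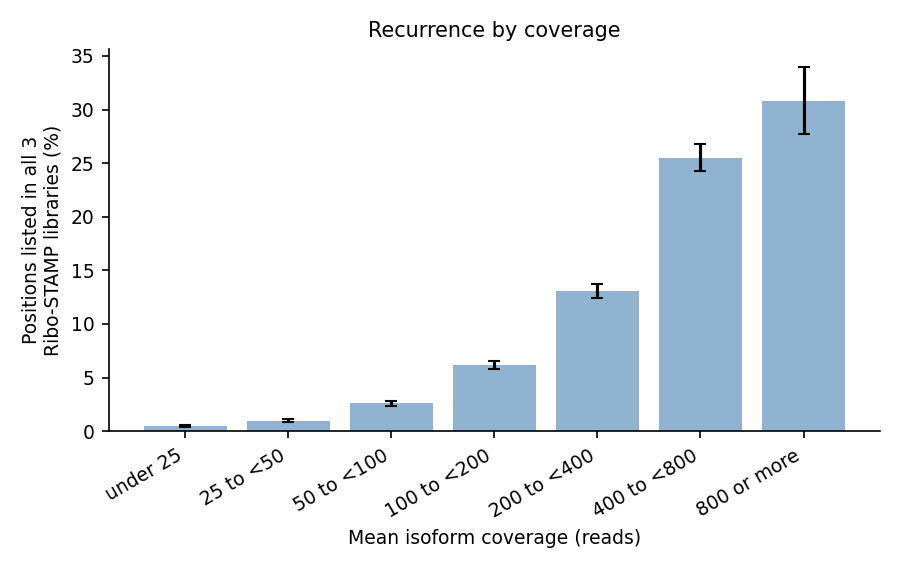
Percent of positions listed in all 3 Ribo-STAMP libraries (y axis) by the mean coverage of their isoform in reads (x axis), among positions listed in no APOBEC1-only library. Bars give the percent and whiskers the exact 95% interval, and the percent climbs from 0.476% under 25 reads to 30.8% at 800 reads and above.

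Each Ribo-STAMP library could be set aside and the positions chosen with the other pair, which gives values that the choice did not use. Of 8687, 9178 and 10054 positions listed in both other libraries and in no APOBEC1-only library, 53.4, 50.5 and 46.1% were also listed in replicate 1, 2 and 3. Of positions listed in only 1 of the other 2 libraries, 15.8, 13.2 and 12.9% were. The edited share over all covering reads was 0.490, 0.502 and 0.523% in the library set aside, against 0.792, 0.721 and 0.683% in the pair that chose the positions. The lower value is the level free of the choice, and it was alike in the 3 libraries (0.505% ± 0.0171, SD, n = 3). Coverage where the library set aside listed no edit was taken from the other entries of the same isoform, whose coverage ranged by a median of 1.75 to 2.08% along an isoform with at least 5 entries.

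The same positions were read in APOBEC1-only cells. Chosen on 2 Ribo-STAMP libraries alone, whatever APOBEC1-only listed, 46.9 to 53.9% of 9103 to 10469 positions were listed in the third Ribo-STAMP library and 1.33 to 1.84% in an APOBEC1-only library. Their edited share was 0.486, 0.495 and 0.534% in the third Ribo-STAMP library and 0.00871 to 0.0106% over the 9 readings in APOBEC1-only libraries. The 9 readings came from 3 libraries, each read at 3 overlapping sets of positions, so they are not 9 separate values. The ranges of the 2 constructs did not overlap, with positions edited in all 6 libraries missing from both. No test is given, since editing in libraries of 1 of the 2 constructs chose the positions.

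The files also give the depth of these positions in APOBEC1-only cells. The isoform of 4541 recurrent positions was listed in at least 1 APOBEC1-only library, and that of 95 in none. For the 3500 whose isoform was listed in all 3, median coverage was 313, 303 and 300.5 reads in APOBEC1-only and 374, 312 and 345 in Ribo-STAMP libraries. A count of 0 allows up to 3 reads, so the APOBEC1-only reads set a median upper limit of 0.434% on the share of the 4541 positions. Their median share pooled over the Ribo-STAMP libraries was 0.750% when every isoform of the position was counted. At 1367 positions the pooled share was at or below the limit, so a difference was not detectable at this depth. The rule required both the edits and the count of 0, so the limit gives the depth and tests nothing.

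The recurrent positions were spread unevenly over genes. Of the 6744 genes listed in any Ribo-STAMP library, 730 (10.8%) held at least 1. A single recurrent position was found in 338 genes, 2 to 4 in 196, 5 to 9 in 80, 10 to 29 in 85, and 30 or more in 31. Only 52 genes held 50% of the positions, and the 15 leading genes held 1167, or 25.2%. Genes with a recurrent position had a median coverage of 84.3 reads and a median coding length of 1750.5 bases, and the others 10.0 reads and 1458 bases. Across the 730 genes the number of positions followed coverage (Spearman rho 0.73) more closely than coding length (rho 0.16, 720 genes with a length). The number of positions and the coverage came from the same libraries, whereas the lengths came from GENCODE 29.

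**Figure D3:**
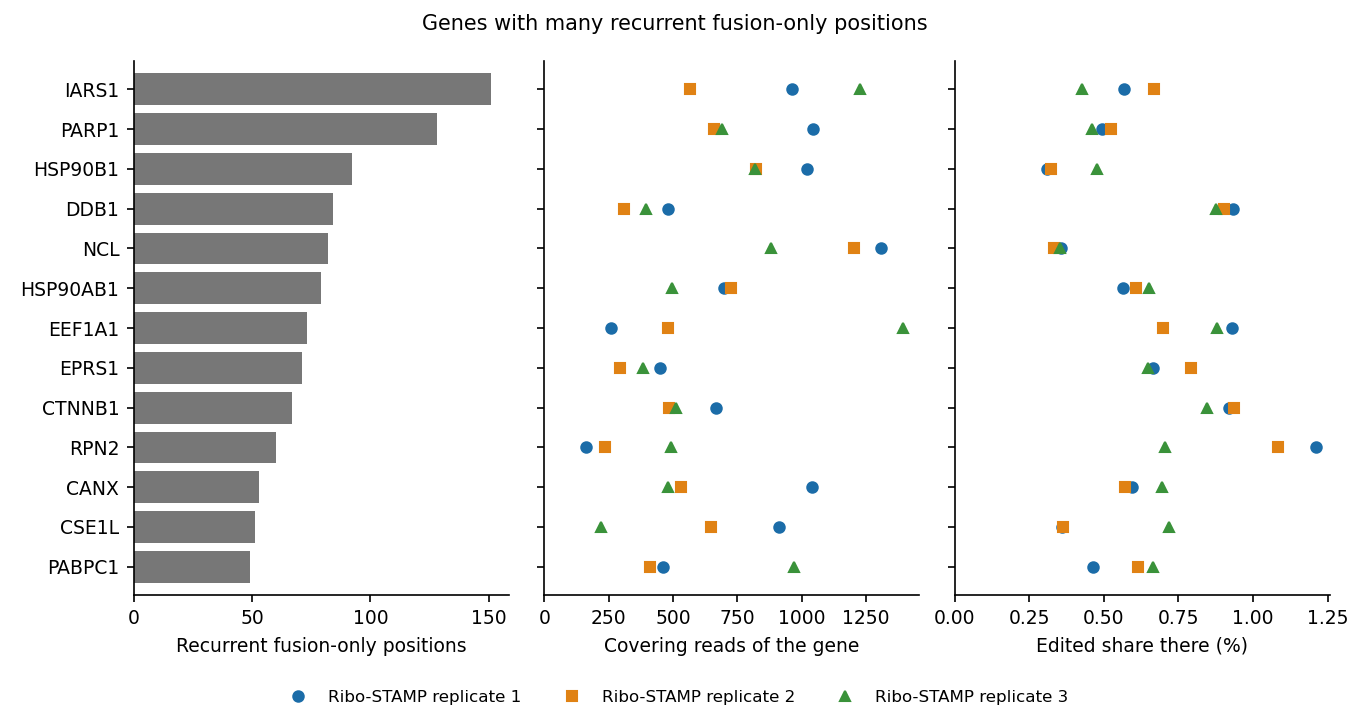
For 13 of the 15 genes with the most recurrent positions, their number (bars, left), the covering reads of the gene (middle) and the percent of reads edited over its recurrent positions (right) in each Ribo-STAMP library (points). IARS1 leads with 151 positions, and the share stays between 0.309 and 1.21% in these genes.

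The gene with the most recurrent positions loads tRNA. IARS1, which joins isoleucine to its tRNA (chromosome 9, minus strand, recurrent positions from 94973144 to 95051634), held 151, the most of any gene, among 469 listed positions. It was covered by 964, 566 and 1227 reads in Ribo-STAMP replicates 1, 2 and 3, and its recurrent positions had pooled shares of 0.569, 0.667 and 0.428%. Replicate 3 was thus the deepest and the least edited. APOBEC1-only cells had 444, 463 and 676.5 covering reads of IARS1 and 50 listed positions elsewhere in the gene. With each library set aside, the IARS1 share was 0.425% ± 0.0705 (SD, n = 3). EPRS1, which charges tRNA with glutamate and proline, held 71 positions with shares of 0.664, 0.792 and 0.647%. Recurrent positions were found in 14 of 20 aminoacyl-tRNA synthetases, against 10.8% of all genes, and 14.7% of the listed positions of this group were recurrent, against 4.33% over all genes. The median coverage of these 20 genes was 100.5 reads, against 11.8 over all genes. IARS1 and EPRS1 held 151 and 71 of the group's 304 recurrent positions, at a mean coverage of 919 and 376 reads.

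Among factors of translation itself, EEF1A1, which brings charged tRNA to the ribosome (chromosome 6, minus strand, 74227540 to 74229733), held 73 positions, or 52.7 per kilobase of coding sequence. Its coverage was 259, 481 and 1396 reads and its edited reads at these positions 176, 242 and 890, so replicate 3 gave most of them. The shares of 0.931, 0.698 and 0.880% did not follow that order. PABPC1, which coats the poly(A) tail, held 49 positions with 105, 123 and 316 edited reads and shares of 0.465, 0.613 and 0.664%. EEF2, the translocation factor, held 45. In all, 19 of 33 listed translation factors had a recurrent position, against 10.8% of all listed genes, with a median coverage of 64.3 reads. EEF1A1 and ACTB, among others, have near-identical copies elsewhere in the genome, so their reads may be uncertain.

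RPS2 and CKB had the highest mean shares among genes with at least 5 recurrent positions. CKB, the brain-type creatine kinase, held 7 with shares of 5.71, 6.62 and 3.81% (5.38% ± 1.43, SD, n = 3), and 3.30% ± 1.17 with each library set aside. RPS2 held 15 recurrent positions among 74, with 47, 53 and 181 edited reads and pooled shares of 5.22, 4.72 and 5.66% (5.20% ± 0.471, SD, n = 3). Covering reads of RPS2 were 60, 75 and 214 in Ribo-STAMP and 96, 73 and 300 in APOBEC1-only libraries, not scaled for depth. With each library set aside the values were 3.01, 2.72 and 5.30% (3.68% ± 1.42), and replicate 3 was the highest. Of the 15 positions, 13 lay within 145 bases (chromosome 16, 2012103 to 2012247, minus strand), a stretch that held 38 of the 74 listed positions of the gene. The position at 2012103 had 6 of 60, 7 of 75 and 25 of 213 reads edited, or 10.0, 9.33 and 11.7%. The position at 2012196 had 6 of 60, 8 of 75 and 20 of 214, or 10.0, 10.7 and 9.35%. The replicates spanned 2.40 percentage points at the first position and 1.32 at the second. How much of the RPS2 signal came from the vector's own transcript was not tested.

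**Figure D4:**
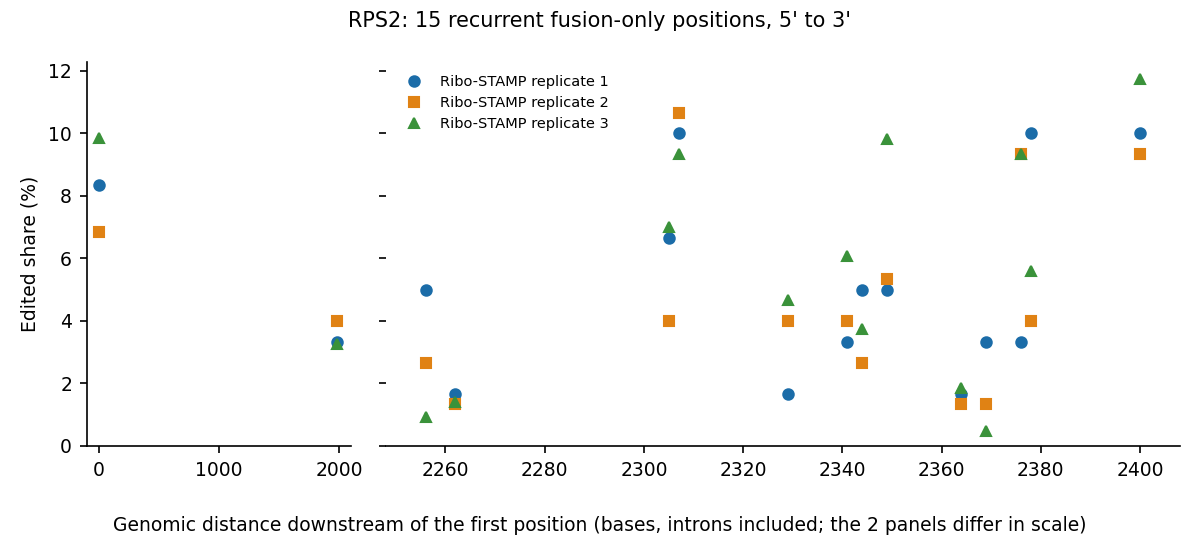
Edited share (percent) of the 15 recurrent RPS2 positions in each Ribo-STAMP library (points) against genomic distance in bases downstream of the first position, with introns included and the stretch with 13 positions enlarged on the right. Shares run from 0.467 to 11.7%, and high and low positions alternate within the stretch.

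Among listed genes of cytosolic ribosomal proteins, RPS2 included, 14 of 70 had a recurrent position, against 10.8% of all listed genes, with a median coverage of 7.5 reads and a median share at their 55 positions of 3.45%. RPL3, of the large subunit, held 15, with 22, 23 and 165 edited reads and shares of 2.99, 1.80 and 2.71%. A position of RPL5, also of the large subunit (chromosome 1, 93301880), was among the 5 with the largest spread, with 1 of 34, 1 of 30 and 13 of 70 reads edited. Replicate 3 was again the high value.

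Chaperones of each compartment carried many recurrent positions. HSP90B1, the HSP90 of the endoplasmic reticulum (chromosome 12, plus strand, 104325315 to 104341418), held 92, with shares of 0.309, 0.323 and 0.477% at a coverage of 1022, 823 and 819 reads. HSP90AB1, its cytosolic relative, held 79 with shares of 0.565, 0.608 and 0.650%, and HSP90AA1 held 32. CANX, the lectin chaperone calnexin, held 53, with shares of 0.595, 0.572 and 0.696%. HSPD1, the mitochondrial chaperonin, held 47 with 0.653, 0.655 and 0.835%, and the ATP synthase subunit ATP5F1A held 27 with 1.14, 1.33 and 1.33%. The groups counted 15 of 24 cytosolic chaperones, 8 of 14 endoplasmic reticulum chaperones and disulfide isomerases, and 5 of 11 genes of mitochondrial chaperones and ATP synthase, against 10.8% of all listed genes. Of the listed positions of the endoplasmic reticulum group 19.2% were recurrent, the largest share among the gene groups, against 4.33% over all genes. The median gene coverage of the group was 69.0 reads, against 11.8 over all genes. HSP90B1 and CANX held 92 and 53 of its 210 recurrent positions, at a mean coverage of 888 and 684 reads.

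RPN2, a subunit of the complex that attaches glycans to proteins entering the endoplasmic reticulum, held 60 recurrent positions. Its shares were 1.21, 1.08 and 0.705% at 161, 235 and 491 covering reads, so the deepest library had the lowest share. CTNNB1, beta-catenin, which links cadherins to actin and acts in Wnt signalling, held 67 with shares of 0.919, 0.936 and 0.845%, and these differed by less than 0.1 percentage points.

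Among genes of the nucleus, PARP1, which senses DNA breaks (chromosome 1, minus strand, 226549185 to 226590079), held 128 recurrent positions. Its coverage was 1043, 658 and 692 reads and its shares 0.496, 0.526 and 0.460%. DDB1, an adaptor of a ubiquitin ligase that acts in DNA repair, held 84 with shares of 0.932, 0.902 and 0.875%, all above those of PARP1. NCL, the nucleolar protein nucleolin, held 82 at the deepest mean coverage among the leading genes described here (1307, 1203 and 882 reads) and at low shares of 0.357, 0.334 and 0.352%. CSE1L, a nuclear export receptor, held 51, with shares of 0.361, 0.365 and 0.717%. Only 222 reads covered it in replicate 3, where the 1 edited read that a listing needs is a larger share. With each library set aside, the CSE1L share was 0.323, 0.282 and 0.267%, and replicate 3 was the lowest. KPNB1, an importin, held 29 with shares of 0.396, 0.397 and 0.384%.

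Replication and RNA-processing genes also held many. TOP2A, which untangles DNA, held 49 recurrent positions with shares of 0.414, 0.528 and 0.529%, and MCM4, of the replicative helicase, held 45 with 0.558, 0.666 and 0.656%. HNRNPU, which binds nuclear RNA, held 34 with 0.506, 0.675 and 0.636%. The helicase DHX9 held 33 with 121, 65 and 50 edited reads and shares of 0.729, 0.596 and 1.13%. The rule required at least 1 edited read at each of the 33 in every library. It thus set a floor under the share of replicate 3. Recurrent positions were found in 24 of 30 spliceosome and hnRNP genes, 11 of 24 replication genes and 11 of 19 nuclear transport genes, against 10.8% of all listed genes. Median coverage of these groups was 120, 51.6 and 85.0 reads. In the proteasome 4 of 26 genes, against 10.8% of all listed genes, had any (PSMD1 with 42, PSMD2 with 16, PSMD6 and PSMD11 with 1 each), at a median coverage of 19.2 reads.

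In metabolism and the cytoskeleton, ENO1, the glycolytic enolase, held 29 recurrent positions with shares of 0.793, 0.528 and 0.511%, and PKM, which makes pyruvate, held 23 with 0.931, 0.830 and 0.572%. ACTB, cytoplasmic actin, held 46 with shares of 0.777, 0.975 and 0.706%, and the tubulin TUBA1B held 30 with 0.932, 0.860 and 0.615%. Counts by group were 9 of 15 glycolysis genes and 9 of 20 genes of tubulins and actins, against 10.8% of all listed genes. Median coverage of these groups was 57.0 and 31.0 reads, against 11.8 over all listed genes. None of the 2 listed mitochondrially encoded genes, MT-ND5 and MT-ND4, had a recurrent position, and only 3 of their positions were listed by Ribo-STAMP at all. Their transcripts are translated by mitochondrial ribosomes, which lack RPS2, and their median coverage was 2.12 reads.

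Genes in the same range of coverage still differed in how densely recurrent positions sat. Among genes with a coding length, 186 of 245 covered by 100 to 200 reads had some, and 88 of 95 covered by 200 to 400. The 27 genes covered by 400 to 800 reads all had some, with a median of 19.0 per kilobase of coding sequence. The lowest was 6.56 in DDX3X, an RNA helicase with 13 at 416 reads, and the highest 52.7 in EEF1A1 at 712 reads. Coverage thus differed within the range as well. PARP1 (42.1 at 798 reads), ACTB (40.9 at 488) and HSP90AB1 (36.4 at 641) were near the upper end. KPNB1 (11.04 at 546) and TOP2A (10.7 at 504) were near the lower. Among the 5 genes above 800 reads the range was 9.19 in EIF4G2, an initiation factor relative, to 40.5 in IARS1. These are densities of positions and not of edited reads.

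The positions with the highest edited share, among those covered by at least 20 reads in each Ribo-STAMP library, came from 10 different genes. ACTN1, an actin crosslinker (chromosome 14, 69360411), led with 17 of 65, 12 of 56 and 14 of 75 reads edited, or 26.2, 21.4 and 18.7%. CKB (chromosome 14, 103987623) had 14.3, 20.6 and 13.3%, and PGRMC1, a heme-binding membrane protein (chromosome X, 118370572), had 9.84, 11.9 and 22.7%. SF3B2, a spliceosome protein (chromosome 11, 65826393), had 19 of 161, 28 of 168 and 29 of 296 reads edited, or 11.8, 16.7 and 9.80%. LARS1, the leucine tRNA synthetase (chromosome 5, 145519776), had 33 of 240, 17 of 151 and 23 of 259, or 13.8, 11.3 and 8.88%.

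The depth of these positions in APOBEC1-only cells differed widely, and the limits below describe it without a test. SF3B2 had 615.5 covering reads in APOBEC1-only libraries, which allow at most 0.487%, CKB 356, which allow 0.843%, LARS1 316.5, which allow 0.948%, and the RPS2 position at 2012103 had 469, which allow 0.640%. PGRMC1 had 309.5, which allow 0.969%. The other 5 of the 10 positions had between 26 and 86.5 such reads, and the ACTN1 limit was 4.55%. APLP2, an amyloid precursor relative (chromosome 11, 130005528), had 2 of 23, 2 of 21 and 4 of 24 reads edited, and its limit of 11.5% exceeded the values of replicates 1 and 2. With the coverage of every isoform its mean share was 9.61% ± 6.23 (SD, n = 3) in place of 11.6% ± 4.38. CALR, the chaperone calreticulin (chromosome 19, 13049526), had 2.94, 16.3 and 14.6%, COPG1, a vesicle coat protein (chromosome 3, 128987437), 15.6, 13.8 and 2.67%, and the cadherin CDH2 7.92, 10.9 and 12.8%. In CALR and COPG1 a single library lay below the APOBEC1-only limits of 3.47 and 5.45%.

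**Figure D5:**
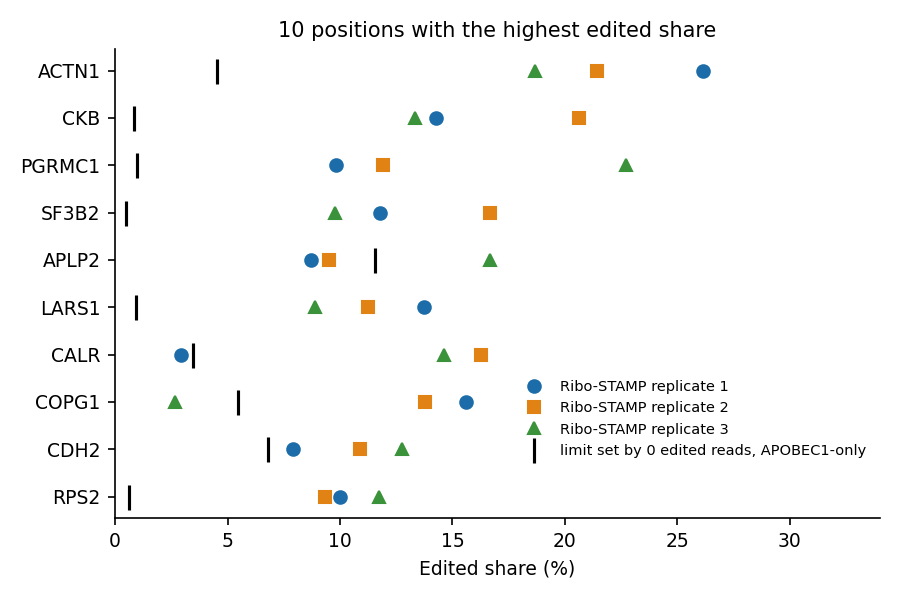
Edited share (percent) in each Ribo-STAMP library (points) for the 10 recurrent positions with the highest mean share, named by gene, with a bar at the upper limit that 0 edited reads set in APOBEC1-only cells. ACTN1 is highest with 18.7 to 26.2%, and the limit, which shows depth only, runs from 0.487% in SF3B2 to 11.5% in APLP2.

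At the other end, NCL and HSP90B1 held the 5 lowest shares. An NCL position (chromosome 2, 232321723) had 1 edited read of 1307, 1203 and 882, or 0.0765, 0.0831 and 0.113%, and HSP90B1 (chromosome 12, 104332179) had 1 of 1027, 827 and 833. The NCL limit in APOBEC1-only cells, 0.0949% from 3160 reads, was above its pooled share of 0.0884%. The 5 deepest positions were all in NCL. The one at 232323781 had 6 of 1310, 2 of 1211 and 8 of 888 reads edited, and a neighbour 4 bases away, at 232323777, had 4, 4 and 3 edited reads. Replicates differed most, besides RPL5 and CALR, at positions of CPSF1, an mRNA cleavage factor (19.0, 7.69 and 2.27%), EIF3E, an initiation factor subunit (8.11, 1.67 and 15.4%), and AP2A2, a clathrin adaptor (15.8, 2.70 and 5.06%).

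Shares of the recurrent positions ranked alike in the replicates, although coverage contributes to that likeness. Over the 4636 positions Spearman's rho was 0.70 for replicates 1 and 2, 0.60 for 1 and 3, and 0.65 for 2 and 3. Coverage itself gave 0.88, 0.65 and 0.78. Among the 2000 positions with at least 200 reads in each library the rho of the shares was 0.51, 0.45 and 0.41. Between the lowest and the highest replicate the median ratio was 2.38, and 1722 positions stayed within 2 times. Of the 24 positions with at least 10 edited reads in each replicate, 21 stayed within 2 times. That minimum leaves out positions that were low in any replicate, so part of this likeness is built into the choice. An EEF1A1 position (chromosome 6, 74229645) with 10 of 259, 7 of 473 and 64 of 1386 reads edited was left out this way. The 24 positions came from 17 genes and included 3 each in DDB1 and ACTB and 2 each in PARP1, CTNNB1 and IARS1. TCOF1, a nucleolar protein (chromosome 5, 149758898), belongs to them with 29 of 272, 13 of 134 and 33 of 358 reads edited, or 10.7, 9.70 and 9.22%.

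Within a gene the recurrent positions were spread evenly among the other listed positions. In 643 genes with at least 20 positions listed by Ribo-STAMP, these were ranked from 5′ to 3′ and the ranks divided into 5 equal parts, which held 19.7, 21.4, 19.1, 19.8 and 20.1% of 4539 recurrent positions. In IARS1 the parts held 43, 32, 27, 26 and 23, so more came early in the ranking, and in PARP1 24, 27, 24, 24 and 29. Distance along the coding sequence was not computed. The median distance to the nearest recurrent position of the gene was 34 bases, and 26.6% of 4298 positions had another within 10 bases. No pair lay on adjacent bases, whereas 349 of 46127 neighbouring pairs did among positions of the same genes listed in 1 or 2 Ribo-STAMP libraries (0.757%). At distances up to 30 bases 41.9% of 1354 neighbouring pairs were a multiple of 3 bases apart, against 37.8% of 29560 pairs of those other positions.

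Long reads also assign edits to isoforms. In 599 positions (12.9%) more than 1 isoform carried the edit in some library, with up to 8 isoforms. In 726 positions (15.7%) a library listed the edit in fewer isoforms than another library did, which lowers the coverage counted there and raises the share. With the coverage of every isoform that lists the position, 157 of the 230 positions with a mean share of at least 5% stayed at or above it. All 4 positions with a mean share of at least 50% had no more than 6 covering reads in any library.

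The genes were also read in MDA-MB-231, libraries that the rule did not use. No position was listed in all 4 of these libraries, although 39893 were listed in 3, so positions edited in every library are missing from each MDA-MB-231 value, and the values are lower than the full editing of a gene by an unknown amount. Of the 730 genes, 621 (85.1%) had a position listed in both untreated libraries, against 2773 of the 6014 other HEK293T-listed genes (46.1%). Among genes listed on the same isoforms in all 4 libraries, those with a recurrent position had a median coverage of 232 and 176 reads in the untreated libraries and the others 79.0 and 71.0. Their median editing was 25.6 and 24.2 edited reads per 100 covering reads of the gene, summed over positions, and 18.8 and 19.0 in the others. Both coverage and editing were thus higher in the first group in each library, and the part of coverage in this was not tested. IARS1 had 115 and 133 edited reads per 100 and EPRS1 110 and 132, and EEF1A1 had 2.52 and 2.15 at 4397 and 4841 covering reads, where positions edited in all 4 libraries are not counted. Library kit and length of induction both differed between HEK293T and MDA-MB-231, and levels of the lines were not tested against each other.

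CoCl2, which mimics hypoxia in cultured cells, was compared with no treatment on editing per covering read, fitted with limma over all 5673 genes, again without the positions edited in all 4 libraries. None of the 653 tested genes with a recurrent position was called at an adjusted p under 0.05 (limma, Benjamini-Hochberg, lowest adjusted p 0.517), and the background was 0% of all genes. At an unadjusted p under 0.05 there were 36 of 653 (5.51%), against 8.55% of all genes. IARS1 had 124 edited reads per 100 in untreated and 125 in CoCl2 cells (log2 ratio 0.05 ± 0.46 SE, limma adjusted p = 0.978), and PARP1 70.2 and 65.3 (-0.10 ± 0.28, limma adjusted p = 0.934). In editing the libraries of the 2 groups overlapped for both genes. Covering reads of IARS1, not scaled for depth, were 117 and 101 in untreated and 38 and 44 in CoCl2 cells. Those of PARP1 were 298 and 210 in untreated and 108 and 108 in CoCl2 cells. The median log2 ratio was 0.12 over the 653 genes and 0.20 over all genes, and the first became -0.08 once the median gene of every library was set to the same level. With 2 libraries a group, these errors do not limit the change of a single gene tightly.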

How the data were processed

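Per the labels, HEK293T libraries were made with the PacBio Iso-Seq Express protocol. The authors deposited 1 text file per library with no header, in which each cell pairs 2 other values, the edited and the covering read counts of a coding position in an isoform. That reading comes from the values, as the first number never exceeded the second. Aligner, edit caller and filters: not given in the sources used here. Per the submitters' processing notes, the builds are hg19 and hg38.

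The recurrent positions and gene lists were chosen with earlier results of these data known. Entries of a position were summed over isoforms. The named genes were the 15 with the most recurrent positions (some are not reported here), the 2 leading genes of each list and RPS2. The named positions were the 10 highest and 5 lowest in share and the 5 widest in spread (at least 20 reads in each library) and the 5 deepest. The rule also named genes changed by CoCl2, of which there were none. Other named positions (EIF3L, EEF1A1, TCOF1), the genes DDX3X, EIF4G2 and EEF2 and the full proteasome count were chosen after their values were seen. Gene symbols came from a table of gene identifiers, and 5 of the 730 genes had none. Coding lengths came from GENCODE 29.

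In MDA-MB-231, isoforms listed in all 4 libraries and genes with a mean coverage of at least 10 entered limma 3.58.1 (R 4.3.3) with a trend, two-sided, on the log2 ratio of edited to unedited reads, 0.5 added to each. Unedited reads were counted over positions. They were the median coverage of an isoform times its positions listed in any MDA-MB-231 library, less the edited reads, summed over the gene. The script was tested on simulated data. Intervals (SciPy 1.17.1, exact, 95%) hold for counting error alone. They count positions as separate although positions of a gene share its coverage, so they leave out the spread between genes. Reads may also not be separate molecules. The labels do not say that replicates were separate cultures, so the p-values reflect the spread among these libraries, which may be technical.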

Additional observations from a re-analysis of the deposited data

How the results depend on the processing

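Requiring at least 2 edited reads in each Ribo-STAMP library left 1142 of the 4636 positions, with a median share of 0.984%. Leaving out a Ribo-STAMP replicate gave 8687 to 10054 positions (8687 without replicate 1, 9178 without 2 and 10054 without 3), 1430 to 1477 genes in place of 730, a median share of 0.885 to 0.979% and 29.9997 to 33.2% of edited reads in place of 20.3%, since fewer libraries then have to list a position. The median share was 0.752% with at least 20 covering reads in each library and 0.748% with the coverage of every isoform that lists the position, an alternative chosen after seeing the data. Leaving out an APOBEC1-only replicate gave 4710 to 4723 positions. The same isoform entry in all 3 libraries left 4328 positions in 689 genes, 20 reads in each left 4420 in 611 genes, and a share under 50% left 4615. In MDA-MB-231, limma called 0 genes with a recurrent position under each alternative that kept all 4 libraries. Among these was the replicate block (22 at an unadjusted p under 0.05). With that block the lowest limma adjusted p over all genes was 0.096, against 0.517 without it. Leaving out 1 library gave a median log2 ratio of 0.0963 to 0.148 over the genes with a recurrent position. Same-numbered libraries did not deviate together over genes (correlation -0.00667), but with 2 libraries a group this cannot tell whether the numbers pair them. Positions with 1 edited read in a library are limited by depth.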
